A study of Mus musculus with 24 samples.

Results

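The genes described here are those that encode the initiation and elongation factors of translation, together with the kinases and other enzymes that act on these factors. They were chosen by name only, as the protein-coding genes of the mouse annotation (GENCODE M21, build GRCm38, which is mm10) whose symbol starts with Eif or Eef, and there were 69 of them among 21938 protein-coding genes. Of the 69, 58 held a protein-protected site in an exon at some day and 52 of these also held one in an intron. The remaining 11 held no site in the lists used here, as did some other genes that every cell uses, so no level is read from them and they are not analysed here.

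Translation starts when eIF2, carrying GTP and the initiator tRNA, joins the small ribosomal subunit with eIF1, eIF1A, eIF3 and eIF5, and the complex is brought to the capped mRNA by eIF4F (the cap-binding eIF4E, the helicase eIF4A and the scaffold eIF4G). The exchange factor eIF2B recharges eIF2 with GTP, and the Eif2ak kinases block this step by phosphorylating eIF2 under stress. The heme-regulated kinase Eif2ak1 is best known from red cell precursors, where it matches globin synthesis to the supply of heme. The elongation factors eEF1 and eEF2 then carry the ribosome along the message.

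Protein interaction profile sequencing (PIP-seq) was carried out in MEL cells, a murine erythroleukemia line arrested at an early erythroid stage, which were sampled before DMSO (day 0) and after 2 and 4 days of it (day 2 and day 4). Each of the 3 days had 8 libraries, from 2 replicate cultures, 2 nucleases (ssRNase, which cuts unpaired RNA, and dsRNase, which cuts paired RNA) and digestion with proteins still bound to RNA (protein) or after their removal (noprotein), all from cells fixed with formaldehyde. A protein-protected site (PPS) is a stretch with more reads in the protein than in the noprotein libraries. Cells of all days were of this single transformed line, without genetic change between groups, and DMSO was the only inducer. Each list merged the calls of its day and names the nuclease and replicate of every call. The day 0 list held 138689 PPSs, that of day 2 169575 and that of day 4 152513. Replicates 1 and 2 gave 63917 and 57986 ssRNase calls on day 0, then 75500 and 91091 on day 2, then 55143 and 54229 on day 4. Their dsRNase calls were 34589 and 41265, then 41323 and 20927, then 68632 and 52174. Replicate 2 of the ssRNase calls at day 0 also stood apart by strand, with 38742 calls on the plus and 19244 on the minus strand. Replicate 2 of the ssRNase calls at day 4 leaned the other way, with 23511 and 30718. Read depth of a library cannot be had from the lists. All 12 erythroid markers examined held PPSs, and 10 of them (the globin genes Hba-a1, Hba-a2, Hbb-bs and Hbb-bt among them) were higher at day 4 than at day 0, whereas 0 of 10 markers of other cell types held any.

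Each value below is the coverage of a gene, the percentage of its exonic (or intronic) nucleotides that lay in same-strand PPSs, so it is already per length. PPSs of 20 to 40 nt, the size left by ribosomes, were not counted. A value was computed for each replicate from the PPSs with a call of that replicate, and changes are differences in percentage points with their range over the 4 pairs of replicates. A gene is said to have risen or fallen where both replicates of a day lay above both of the other and the means differed by at least 5 points in exons or 1 point in introns. This is a rule and not a test, because an exact two-sided permutation test of 2 against 2 values cannot give a p below 0.333. Replicates of a day share merged coordinates, so their spread understates the error. A PPS needs RNA to be present, and a change of RNA amount and a change of its protection cannot be told apart in these lists.

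Some of the protected sequences are given first, because the results below turn on them. Within each gene the replicated PPS with the highest score at the stated day (for Eif2ak1 the first 2 by score) was taken among those of at most 300 nt that hold coding bases and no UTR. The score is the enrichment the authors gave each PPS. Capitals mark coding bases and lower case the neighbouring intron, all in GRCm38, read 5′ to 3′ on the gene's strand.
Eif2ak1, day 4, chr5:143879467-143879552, plus strand: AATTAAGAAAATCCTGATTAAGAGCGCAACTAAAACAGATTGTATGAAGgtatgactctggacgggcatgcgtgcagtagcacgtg
Eif2ak1, day 4, chr5:143889455-143889574, plus strand: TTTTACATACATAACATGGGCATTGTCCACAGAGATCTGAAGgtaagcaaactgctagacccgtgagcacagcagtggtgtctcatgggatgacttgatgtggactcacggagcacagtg
Eif2ak2, day 4, chr17:78863804-78863896, minus strand: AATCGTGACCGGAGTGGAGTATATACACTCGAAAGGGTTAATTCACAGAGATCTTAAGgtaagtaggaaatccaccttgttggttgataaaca
Eif5a, day 4, chr11:69919155-69919253, minus strand: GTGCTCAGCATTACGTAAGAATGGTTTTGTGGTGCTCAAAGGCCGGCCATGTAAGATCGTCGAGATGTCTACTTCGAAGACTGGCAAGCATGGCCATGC
Eif3f, day 4, chr7:108940654-108940770, plus strand: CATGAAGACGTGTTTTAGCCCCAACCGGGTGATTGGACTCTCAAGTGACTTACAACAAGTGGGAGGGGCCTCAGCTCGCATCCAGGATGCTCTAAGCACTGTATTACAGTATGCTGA
Eif4a2, day 0, chr16:23110097-23110241, plus strand: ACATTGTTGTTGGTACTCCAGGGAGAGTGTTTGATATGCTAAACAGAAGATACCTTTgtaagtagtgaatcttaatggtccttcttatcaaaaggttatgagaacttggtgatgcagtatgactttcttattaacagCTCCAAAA
The first Eif2ak1 site (score 34.76, ssRNase calls of both replicates) held 49 coding and 37 intronic bases, and the second (score 25.97, calls of both nucleases in both replicates) held 42 and 78. Both overlapped PPSs at days 2 and 4 and none at day 0. The Eif2ak2 site (score 19.85) overlapped PPSs at all 3 days. The Eif5a site (score 20.25, dsRNase calls of both replicates) was wholly coding, with 99 bases, and overlapped PPSs at days 2 and 4. The Eif3f site (score 16.55) overlapped PPSs at days 0 and 4. The Eif4a2 site (score 57.06) ran from 1 exon across a whole intron of 80 bases into the next, with 65 coding bases, and overlapped PPSs at all 3 days.

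The second Eif2ak1 site and the Eif2ak2 site lie at the same place of their genes. Both end their coding part at the donor site behind an exon that codes for the start of the kinase catalytic loop, a stretch that protein kinases share. The last 18 coding bases were equal at 15 positions, 26 of the 42 aligned coding bases were equal, and the first 5 intronic bases were the same. This pair was noticed after the values were seen.

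Exonic coverage of the translation factor genes was lowest at day 2. The 58 genes had a mean of 11.1% ± 0.129 on day 0, which was 7.66% ± 0.000449 on day 2 and 10.5% ± 1.26 on day 4 (SD, n = 2). Over all 9550 genes with a PPS it was 6.46%, 5.53% and 6.79%. The ratio of both means was 1.73 and 1.72 in the replicates of day 0, 1.40 and 1.37 at day 2 and 1.57 and 1.52 at day 4, so the factor genes were covered more densely than the average gene at each day, and least so at day 2. The mean at day 2 was the lowest of the 3 days in 34 of the 58 (58.6%), against 32.2% of all genes. That share was not computed for genes of similar coverage. By nuclease, the replicate means of the factor genes at day 2 lay further apart, at 4.21% and 5.50% (ssRNase) and 5.34% and 3.48% (dsRNase).

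**Figure D1:**
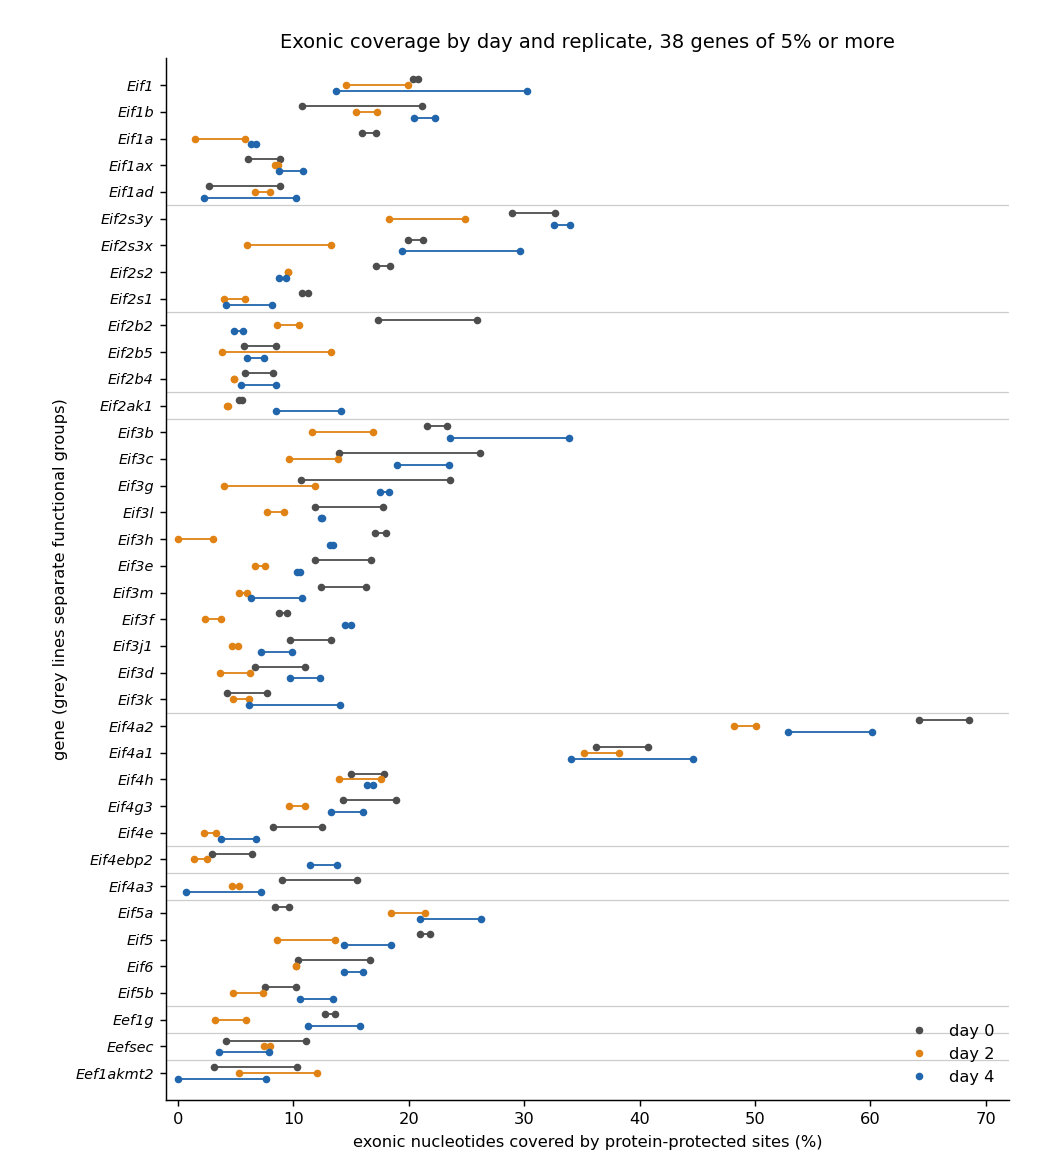
Exonic coverage (percent of exonic nucleotides in PPSs) of the 38 translation factor genes with a mean coverage of at least 5%, at days 0, 2 and 4, with a point for each replicate and a line that joins both replicates of a day. Of these genes 20 fell at day 2, while Eif5a is higher at day 2 (21.4% and 18.4%) than at day 0 (8.37% and 9.59%).

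From day 0 to day 2, 21 of the 58 genes (36.2%) fell, against 13.6% of all genes tested, and 2 rose (Eif5a and Eef1akmt1), against 5.61%. The median change was -2.45 points over the factor genes and -0.203 over all genes. Densely covered genes have more room to change, so genes with a mean coverage of at least 5% were also taken alone. Among these, 20 of 38 factor genes (52.6%) fell against 27.2% of all such genes, and 1 rose against 11%. From day 2 to day 4, 15 genes (25.9%) rose against 15.1% of all genes, and 2 fell (Eef1d and Eef1akmt1) against 4.99%. In the densely covered class 15 of 38 rose against 31.8%, and 0 fell against 9.11%. From day 0 to day 4 the shares over the 58 factor genes were near those of all genes, with 6 rises (10.3% of 58, against 13.4%) and 8 falls (13.8%, against 11.3%). In the densely covered class 5 of 38 rose (13.2%, against 26.2% of all such genes) and 7 fell (18.4%, against 20.3%). Rises were thus less common there than among all such genes. Of the 21 genes that fell at day 2, 9 rose again by day 4 (Eef1g, Eif2s3x, Eif2s3y, Eif3b, Eif3c, Eif3f, Eif3h, Eif4a2 and Eif5), which is 15.5% of the 58 against 4.65% of all genes, 8 stayed below day 0 at day 4 (13.8% against 7.34%), Eif4a2 being counted in both, and 5 had no other call (Eif2s1, Eif3e, Eif3j1, Eif3l and Eif4g3). With the calls of both nucleases together, 27 genes (46.6%, against 64.2% of all genes) had no exonic call between any days. The shares of these patterns over days were not computed for the densely covered class.

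Replicate 2 of day 2 had the fewest dsRNase calls of all (20927), and replicate 1 had 41323, beside 34589 and 41265 at day 0. The part of these call numbers in the falls at day 2 was not tested. With dsRNase calls, replicates 1 and 2 of day 2 covered 5.34% and 3.48% of the factor genes' exons on average, beside 7.44% and 8.16% at day 0. With the calls of both nucleases together, 23 genes fell at day 2 without replicate 2 of day 2. The count was 21 without replicate 1 of day 2 and 18 without replicate 2 of day 0. Shares of all genes are not given for these settings. Without replicate 1 of day 2 the rises at day 2 and the falls from day 2 to day 4 numbered 4 each instead of 2. In this setting day 2 has a single value in place of a pair, and the reason for the change was not tested. By strand, 13 of 32 plus-strand and 8 of 26 minus-strand factor genes fell, against 15.5% and 11.6% of all genes on these strands. From day 0 to day 4, 3 plus-strand factor genes rose and 4 fell, and 3 minus-strand ones rose and 4 fell. Over all genes 10.7% rose and 13.2% fell on the plus strand, and 16.2% and 9.32% on the minus strand. The part of the strand skew of the calls in these changes was not tested. Only 6 of the falls at day 2 reached 10 points, and the share of all genes with such a fall is not given here.

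The scanning factors eIF1 and eIF1A keep the small subunit open while it searches for the start codon. Eif1 had 20.8% and 20.4% at day 0, 14.5% and 19.9% at day 2 and 30.3% and 13.7% at day 4, and its replicates overlapped between days 2 and 4. Its close relative Eif1b had 10.8% and 21.2%, then 17.2% and 15.5%, then 20.4% and 22.3%, and it rose from day 2 to day 4 by 5.02 points (range 3.2 to 6.84). Eif1a fell, from 17.2% and 15.9% at day 0 to 5.85% and 1.44% at day 2 and 6.36% and 6.77% at day 4. Its change to day 4 was -9.99 points (-10.8 to -9.17), and both later days lay below day 0 without overlap. Eif1ax, the X-linked gene for the same factor, had 6.04% to 8.89% at day 0 and 8.79% to 10.9% at day 4, which was no call.

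Of the 6 genes for eIF2 and related tRNA-delivery proteins, 4 fell at day 2 (13.6% of all genes) and 1 was lower at day 4 than at day 0 (11.3%). The median change at day 2 was -7.18 points. Eif2s2, which encodes the beta subunit, had 18.4% and 17.2% at day 0, 9.53% and 9.52% at day 2 and 9.37% and 8.73% at day 4. It thus fell by 8.70 points to day 4, and its later days lay close together. Both genes of the GTP-binding gamma subunit fell and then rose again. The X-linked Eif2s3x went from 21.2% and 19.9% to 13.3% and 5.98% and then 29.7% and 19.4%, and the Y-linked Eif2s3y from 32.7% and 29.0% to 18.3% and 24.9% and then 34% and 32.6%. The alpha subunit gene Eif2s1, whose product carries the phosphorylated residue, had 10.7% and 11.3%, then 3.98% and 5.80%, then 8.12% and 4.18%.

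In the 5 genes of the exchange factor eIF2B, 2 fell at both later days (7.34% of all genes). Eif2b2 (beta subunit, chr12:85219481-85226628, plus strand) had the largest fall of all factor genes from day 0 to day 4. It had 25.9% and 17.3% at day 0, 10.5% and 8.54% at day 2 and 5.62% and 4.83% at day 4, a change of -16.4 points (-21.1 to -11.7). Eif2b1 (alpha subunit) had 5.08% and 10.1% at day 0 and 2.29% in both replicates of day 4, a change of -5.31 points that turned to 0.697 when only PPSs with calls of both replicates were counted and was -2.79 without replicate 2 of day 0. Eif2b5, the catalytic subunit, had 5.70% and 8.52% at day 0 and 7.48% and 5.97% at day 4, and its replicates overlapped.

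Of the 4 eIF2 kinase genes, 2 rose by day 4 and 0 fell, where 13.4% and 11.3% of all genes did. Eif2ak1 (chr5:143817788-143904251, plus strand) had 5.59% and 5.31% at day 0, 4.22% and 4.37% at day 2 and 14.1% and 8.48% at day 4. The change to day 4 was 5.86 points (2.89 to 8.84), in ssRNase calls 3.18 and in dsRNase calls 3.56 points. Its intronic coverage rose too, from 0.0767% and 0.141% to 1.37% and 1.55%. Eif2ak2, the kinase activated by double-stranded RNA, had 0.939% and 2.8% at day 0, 3.23% and 1.53% at day 2 and 6.28% and 7.63% at day 4, a change of 5.09 points (3.48 to 6.69). Both changes stayed positive but lost the call when only PPSs of both replicates were counted (0.141 points in Eif2ak1 and 3.15 in Eif2ak2), and the value of Eif2ak1 without replicate 1 of day 4 was 3.03 points. That of Eif2ak2 was 4.16 points without replicate 1 of day 0 and 4.41 without replicate 2 of day 4, both under the limit. Eif2ak4 (GCN2, activated by amino acid shortage) had 1.85% and 1.86% at day 0, 2.49% and 1.97% at day 2 and 4.69% and 4.68% at day 4. These groups did not overlap between days 0 and 4, but the difference of 2.83 points is under the limit of 5. Eif2ak3 (PERK, the kinase of the endoplasmic reticulum) had at most 1.69% at any day.

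The eIF3 complex is the large scaffold that holds the small subunit and the mRNA together. Of its 14 genes, 12 held sites, 8 fell at day 2 and 6 rose from day 2 to day 4. Of all genes 13.6% and 15.1% did so, and 27.2% and 31.8% in the densely covered class. The median change was -6.89 points at day 2 and 5.34 points from day 2 to day 4. Eif3h had 18% and 17.1% at day 0, 3.04% and no PPS in replicate 2 of day 2, and 13.2% and 13.4% at day 4. Its exonic PPSs held dsRNase calls only. Eif3b, the scaffold subunit, had 23.3% and 21.5% at day 0, 16.9% and 11.6% at day 2 and 33.9% and 23.6% at day 4, so that it ended above its start, by 6.32 points (0.269 to 12.4). Without replicate 1 of day 4 the change of Eif3b was 1.17 points and no call. Eif3f had 8.75% and 9.41%, then 3.74% and 2.32%, then 14.5% and 15.0%, a change of 5.66 points (5.08 to 6.23) from day 0 to day 4. At days 2 and 4 its exonic PPSs held dsRNase calls only. Eif3m fell at day 2 and stayed lower at day 4, with 16.3% and 12.4%, then 5.25% and 5.98%, then 6.33% and 10.8%. Its change to day 4 was -5.81 points, but -3.88 without replicate 1 of day 0 and -3.59 without replicate 1 of day 4. Eif3c had 14% and 26.2%, then 9.66% and 13.8%, then 23.5% and 19.0%.

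Among the cap-binding eIF4F genes, 6 of 11 held sites and 3 of these fell at day 2 (13.6% of all genes). The paralogous helicase genes Eif4a1 and Eif4a2 were the most densely covered of all 58, and Eif4a2 was first at each day. Eif4a2 (chr16:23107444-23114136, plus strand) had 64.3% and 68.5% at day 0, 50.1% and 48.1% at day 2 and 60.2% and 52.9% at day 4. It fell by 17.3 points at day 2 (-20.4 to -14.1), rose by 7.39 to day 4 and remained 9.88 points below day 0. Eif4a1 (chr11:69666936-69672423, minus strand) had 36.2% and 40.7%, then 38.2% and 35.2%, then 44.7% and 34.1%, and its replicates overlapped at all days. Whether the change of these paralogs differs was not tested. The cap-binding protein gene Eif4e fell, from 12.5% and 8.24% to 2.25% and 3.30% at day 2 and 3.76% and 6.81% at day 4. Its change to day 4 was -5.08 points, but -2.95 without replicate 1 of day 0 and -3.56 without replicate 1 of day 4. Eif4a3, a helicase of the same family that sits in the exon junction complex, had 9.05% and 15.5%, then 4.67% and 5.28%, then 7.21% and 0.660%. The eIF4E-binding protein gene Eif4ebp2, whose product keeps eIF4E from eIF4G, moved the other way, with 6.45% and 2.92%, then 1.40% and 2.49%, then 13.8% and 11.5%. It rose by 7.94 points from day 0 to day 4 (5.03 to 10.8). The other eIF4E-binding protein genes had no exonic call between days, and Eif4enif1, which carries eIF4E into the nucleus, lay between 3.47% and 5.93% in all 6 replicate values.

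Eif5a encodes the hypusine-containing factor that helps the ribosome over difficult stretches such as runs of proline, and it was the gene with the largest rise. It (chr11:69916714-69921958, minus strand) had 8.37% and 9.59% at day 0, 21.4% and 18.4% at day 2 and 26.3% and 21% at day 4, and both later days lay above day 0 without overlap. The change was 10.9 points to day 2 (8.83 to 13) and 14.6 points to day 4 (11.4 to 17.9). The nuclease behind it shifted. With ssRNase calls Eif5a had 5.09% and 5.13% at day 0, 16.9% and 11.3% at day 2 and 3.66% and 0 at day 4, and with dsRNase calls 3.28% and 4.46%, then 4.50% and 11.2%, then 26.3% and 21%. Eif5, which triggers GTP hydrolysis by eIF2, fell at day 2 and rose after it, with 21.9% and 21%, then 8.62% and 13.6%, then 18.5% and 14.4%. Eif6, which keeps the ribosomal subunits apart, ranged from 10.2% to 16.6% and made no call. Eif5b, the GTPase of subunit joining, rose from day 2 (4.79% and 7.41%) to day 4 (13.4% and 10.5%).

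Of the elongation factor genes with sites, Eef1g, a subunit of the eEF1B exchange complex, was the most densely covered. It had 12.8% and 13.6% at day 0, 5.92% and 3.19% at day 2 and 15.8% and 11.3% at day 4, so it fell at day 2 and rose again. Eef1d, another subunit, had 6.60% and 9.79% at day 2 and 1.70% and 1.90% at day 4, 1 of the 2 falls in that interval. The other was in Eef1akmt1, a lysine methyltransferase of eEF1A, with 11.7% and 6.86% at day 2 and no PPS at day 4. Eefsec, which delivers selenocysteine, had 4.14% and 11.1% at day 0 and 7.89% and 3.53% at day 4. Eef1e1 and Eef1akmt2 made no call when the nucleases were pooled.

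By nuclease, the dip at day 2 was seen in the dsRNase calls. With these, the factor genes had a mean coverage of 7.80% ± 0.507, 4.41% ± 1.32 and 8.47% ± 1.23 on the 3 days in turn (SD, n = 2, beside 3.92%, 2.54% and 4.46% over all genes). With ssRNase calls it was 5.52% ± 0.341, 4.85% ± 0.916 and 4.51% ± 0.183 (3.63%, 3.89% and 3.63%). From day 0 to day 2, 18 genes fell in dsRNase coverage (10.9% of all genes) and 0 rose (1.41%), while in ssRNase coverage 4 fell (5.06%) and 4 rose (5.13%). From day 2 to day 4, 17 rose in dsRNase coverage (13.9%) and 0 fell (1.31%), while in ssRNase coverage 4 rose (5.06%) and 4 fell (5.06%). From day 0 to day 4, 7 rose (9.28%) and 8 fell (6.16%) in dsRNase coverage, and 2 rose (7.19%) and 5 fell (6.90%) in ssRNase coverage. Without replicate 2 of day 4, 16 rose in dsRNase and 5 in ssRNase coverage, and without replicate 1 of day 0, 4 rose and 9 fell in ssRNase coverage (8 fell without replicate 2 of day 0 or replicate 1 of day 4). The median change of the factor genes at day 2 was -2.53 points with dsRNase and -0.121 with ssRNase. Shares by nuclease were not computed for the densely covered class.

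**Figure D2:**
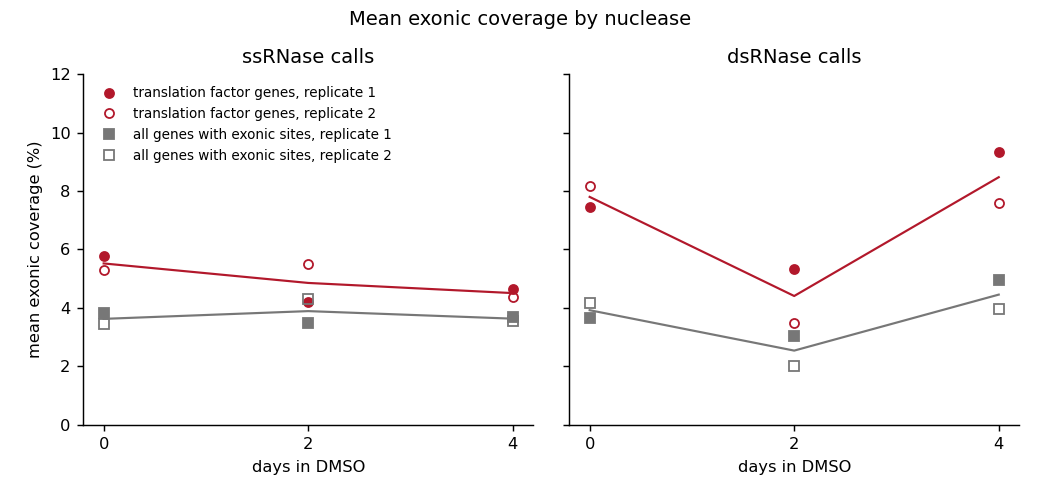
Mean exonic coverage (percent) of the 58 factor genes and of all 9550 genes by day, for ssRNase and dsRNase calls, with a point for each replicate and lines through the means. The dsRNase mean of the factor genes is 7.80%, 4.41% and 8.47% at days 0, 2 and 4, and the ssRNase mean 5.52%, 4.85% and 4.51%.

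Within a day, dsRNase coverage exceeded ssRNase coverage in 14 of the 58 genes at day 0 (8.42% of all genes), in 2 at day 2 (1.91%) and in 17 at day 4 (9.72%). The opposite held for 3 genes at day 0 (6.26%), 5 at day 2 (9.60%) and 1 at day 4 (5.16%). These shares, too, were not computed for the densely covered class. Eif2s3x had no exonic PPS with an ssRNase call at day 0 and 21.2% and 19.9% with dsRNase calls. Eif4a2 lay on the other side at day 0, with 63.1% and 62.4% in ssRNase and 35.1% and 40.02% in dsRNase calls, and at day 4 both nucleases were close, at 42.1% and 42.2% against 43.0% and 45.6%.

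By transcript region, coding sequence was the most densely covered at days 0 and 4, while at day 2 its replicates overlapped those of the 5′ UTR. Of the coding nucleotides of the factor genes, 18.6% ± 1.02 were covered on day 0, then 12.1% ± 0.181 and then 19.1% ± 2.37 (SD, n = 2), beside 10.4%, 8.83% and 11.2% over all genes. The 5′ UTR followed another course, with 10.9% at day 0, 11.4% at day 2 and 6.84% at day 4 (all genes 7.18%, 7.5% and 5.89%). The replicates of 5′ UTR coverage at day 4, 8.08% and 5.61%, lay below those of day 0, 11.9% and 9.85%, and below those of day 2, 10.5% and 12.3%. The 3′ UTR dipped with the coding sequence, from 6.42% to 3.34% and back to 6.44% (all genes 4.44%, 3.38% and 5.95%). Intronic coverage was 1.84%, 1.46% and 1.29%, above the 0.743%, 0.753% and 0.790% over all genes.

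**Figure D3:**
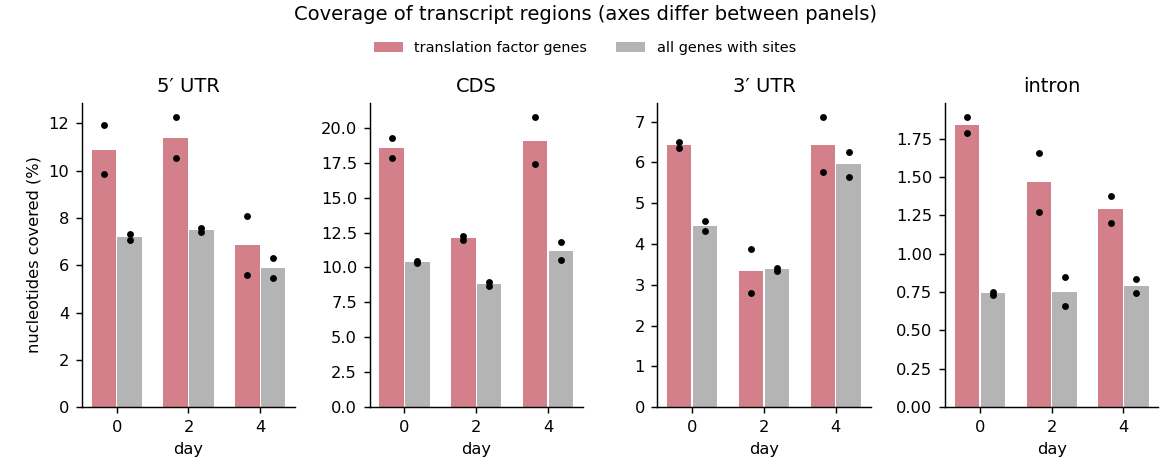
Percent of the nucleotides of each transcript region (5′ UTR, CDS, 3′ UTR, intron) that lay in PPSs at days 0, 2 and 4, for the factor genes and for all genes with sites. Bars are means, points are the replicates, and the axes differ between panels. Coding coverage of the factor genes goes from 18.6% to 12.1% and back to 19.1%, while 5′ UTR coverage is 6.84% at day 4.

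Intronic coverage fell in 14 of 52 genes (26.9%) from day 0 to day 4, against 10.8% of all genes, and rose in 2 (Eif2ak1 and Eif2s3y), against 9.78%. The mean per gene at day 0 was 4.40% and 4.12% in the factor genes and 1.34% and 1.33% over all genes. Densely covered introns have more room to fall, and genes of similar intronic coverage were not taken alone. Without replicate 1 of day 4 it rose in 5. Eef1g had the deepest fall, from 23.0% and 25.7% to 10.7% and 8.35%. Eif3c fell from 6.55% and 6.18% to 1.19% and 0.450%, and Eif4e from 3.83% and 5.81% to 1.60% and 1.21%. Eif2s3y rose from 1.88% and 2.11% to 5.66% and 3%. The intronic coverage of Eif4a1 was the highest of all, at 62.1% and 60.1% on day 0 and 66.6% and 55.5% on day 4, and that of Eif4a2 was next, at 55.2% and 53.7% and then 51.0% and 49.4%.

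The nuclease that revealed a site differed between exons and introns. PPSs that touched exons only numbered 341, 275 and 329 at days 0, 2 and 4, and of these 65.1% (Wilson 95% interval 59.9 to 70.0), 50.2% (44.3 to 56.0) and 67.8% (62.6 to 72.6) held dsRNase calls alone. PPSs in introns only numbered 459, 391 and 342. Of these, 72.1% (67.8 to 76.0) and 76.7% (72.3 to 80.6) held ssRNase calls alone at days 0 and 2, but 39.2% (34.2 to 44.4) did at day 4, when 38.6% (33.6 to 43.9) held dsRNase calls alone. The same shift was seen over all PPSs on genes, where the share with ssRNase calls alone was 54.8%, 65.5% and 35.6%, and over the factor genes, where it was 49.3%, 57.5% and 26.6%. The number of dsRNase calls was highest at day 4, and its part in the shift was not tested. These intervals cover counting error only, and PPSs are not replicates.

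**Figure D4:**
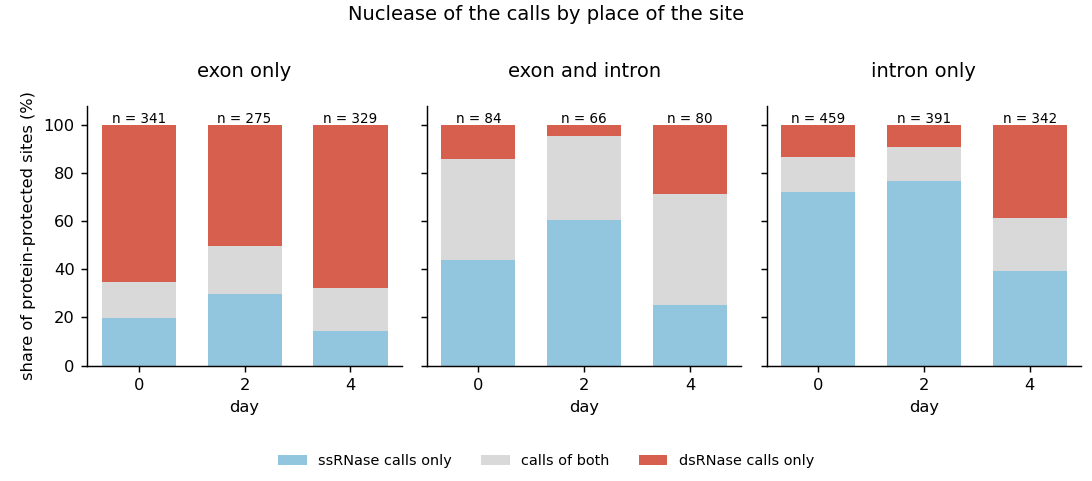
Share (percent) of PPSs of the factor genes with ssRNase calls only, dsRNase calls only or both, for PPSs in exons only, in exon and intron, and in introns only, at days 0, 2 and 4. Intronic PPSs with ssRNase calls only make up 72.1% and 76.7% at days 0 and 2 and 39.2% at day 4.

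The sites of the 58 genes at the 3 days were joined into 1403 regions where they overlapped by at least 1 nt, and 245 of these (17.5%) were seen at all 3 days. Another 331 were found at day 0 only, 231 at day 2 only and 236 at day 4 only. Both replicates held the region at each of the 3 days for 71 regions in 27 genes, of which 16 lay in Eif4a2, 8 in Eif4a1, 7 in Eif4g3 and 6 in Eif2s3y.

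Several of the regions in Eif4a1, Eif4a2, Eif5 and Eif2ak3 coincide with small nucleolar RNAs (snoRNAs), which guide the modification of ribosomal RNA and are cut from the introns of such genes. There were 10 snoRNAs covered at all 3 days, with 3 in Eif4a1 (Gm24029, Gm25835 and Gm22988), 5 in Eif4a2 (Snord2, Gm24201, Snora81, Gm26447 and Gm24616), Snora28 in Eif5 and Gm23346 in Eif2ak3. Snord2, Gm24201, Gm26447, Snora28 and Gm23346 were covered over their whole length in both replicates of each day when the nucleases were pooled. By nuclease they were not constant, as Snora28 had no PPS with ssRNase calls at day 4 and Snord2 none with dsRNase calls at day 0, where the other nuclease covered both in full. In Eif2ak3 the exons around Gm23346 had at most 1.69%, as given above. Of the others, Gm22988 was covered to 84.0% and 47.2% at day 0 and fully at day 4, and Snora81, which shares its span with the miRNA gene Gm49346, to 98.9% at day 0 and 78.1% in both replicates of day 4. The sequences of 3 of those covered in full are shown, with capitals for an ACA that starts 6 or 5 bases before the end, where H/ACA snoRNAs carry it.
Snora28, chr12:111540941-111541067, plus strand: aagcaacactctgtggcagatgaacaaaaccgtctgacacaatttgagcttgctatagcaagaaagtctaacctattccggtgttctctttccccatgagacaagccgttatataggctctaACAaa
Gm23346, chr6:70855444-70855579, plus strand: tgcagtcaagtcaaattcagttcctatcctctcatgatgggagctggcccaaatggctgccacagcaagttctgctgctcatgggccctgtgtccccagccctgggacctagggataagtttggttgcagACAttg
Snord2, chr16:23108953-23109021, plus strand: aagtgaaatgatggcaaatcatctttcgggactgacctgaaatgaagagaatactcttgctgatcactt
This ACA was found on the snoRNA's own strand in 5 of the 10 (Gm23346, Gm24029, Gm22988, Gm24616 and Snora28), in 652 of 1507 annotated snoRNAs (43.3%) and in 2.97% to 3.34% of promoter windows of the same lengths. Gm24201 and Gm26447 carry an ACA closer to their annotated end than this rule allows and were not counted. Of the 10, all but Gm25835 and Gm23346 overlap an exon of some transcript of their host and so add to its exonic coverage. On the transcript with the longest CDS alone the fall of Eif4a2 from day 0 to day 4 was -11.1 points, beside -9.88 on the union of its exons.

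The highest score of any PPS on a factor gene, 169.28, was that of a day 2 PPS of 623 nt in Eif4a2 over Gm26447 and Gm24616. The next gene by score was Eif3b, with its PPSs in intron 13 (of a transcript with 19 exons), at chr5:140438395-140439912. This intron of 1518 nt holds a tandem array of a 66-nt unit, 1001 nt long with 15.2 copies (chr5:140438660-140439660). In 1 of the joined regions on this array, 98.9% of bases equal the base 1 unit further on. That share is not given for the whole array. A pair of neighbouring units is shown, the first in capitals, because this array carried most of the intronic protection of the gene.
Eif3b array, chr5:140438858-140438989, plus strand: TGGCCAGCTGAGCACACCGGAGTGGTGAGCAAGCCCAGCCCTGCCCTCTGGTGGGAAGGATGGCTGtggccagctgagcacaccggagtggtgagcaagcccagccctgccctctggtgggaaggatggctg
The array was covered to 96.0% in both replicates of day 0, 86.8% in both of day 2 and 85.4% and 81.3% at day 4. The remaining 517 nt of the intron were covered to 47.6% and 15.3%, then 11.0% and 22.4%, then 13.2% and 0. The array makes up 4.84% of the intronic nucleotides of Eif3b but held 75.9%, 82.4% and 91.1% of those covered. Its highest-scoring PPS had 93.11 at day 0, 148.46 at day 2 and 129.82 at day 4. Among its 30-base words, 63.1% occur more than 10 times in it, and the authors kept reads with up to 10 alignments, so how reads were placed among the units is uncertain. Tandem repeats were also found in other constant intronic regions, with a 44-nt unit (96.0% of bases equal 1 unit on) and a 34-nt unit (73.2%) in Eif4g3 and a 132-nt unit (86.4%) in Eif2ak4.

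**Figure D5:**
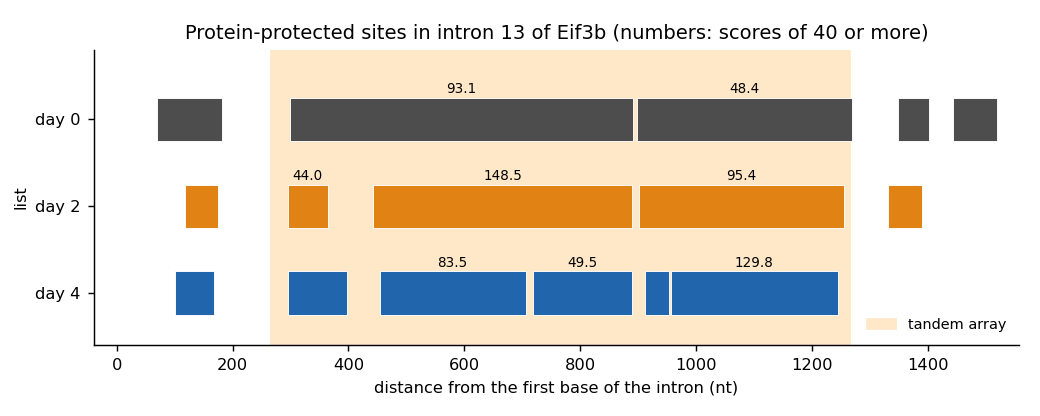
Map of the Eif3b intron with the tandem array and the PPSs of days 0, 2 and 4 along distance from the intron's first base (nt), with scores of 40 or more printed above the PPSs. The array is covered to 96.0%, 86.8% and 85.4% in replicate 1 at days 0, 2 and 4, while the rest of the intron is covered to 47.6% or less.

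Many of these genes have processed pseudogenes or close paralogs, and reads with up to 10 alignments were kept. Of the 58, 13 share over 30% of their exonic 30-base words with another gene and 39 share at most 10%. Among the 21 that fell at day 2, 9 share over 30%, as Eef1g (68.2%), Eif3m (54.7%), Eif4a3 (45.9%) and Eif4a2 (38.4%) do, and their values are uncertain for that reason. Eif4a1 shares 67.6%. Values without the positions of shared sequence were not computed. Leaving out positions that lie in an exon of another annotated gene on the same strand, which is another matter, gave 22 falls at day 2 and kept all 14 calls between days 0 and 4. Eif2b2, Eif2ak1, Eif4ebp2, Eif3f and Eif3b share at most 1.10%, and Eif5a shares 14.8%.

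Genes that act with these factors were examined as a list of 33, of which 31 held PPSs. From day 0 to day 4, 7 rose and 8 fell, where 13.4% and 11.3% of all genes did. The rises included the signalling kinases of eIF4E, Mknk1 (6.29% and 6.22% to 19.8% in both replicates) and Mknk2 (6.32% and 1.16% to 32.9% and 15.6%), and both regulators that recruit the phosphatase which removes the phosphate from eIF2, Ppp1r15a (12.5% and 14.9% to 36.0% and 34.5%) and Ppp1r15b (21.8% and 21% to 29.0% and 29.2%). Pdcd4, an inhibitor of eIF4A, rose by 8.88 points, Paip2, which holds poly(A)-binding protein from its mRNA, by 9.31 and Pabpc4 by 6.89. The falls included 4 of the 11 genes listed for the integrated stress response, the transcription factors Ddit3 (-17.1 points) and Cebpb (-6.48) and the enzymes Asns (-8.98) and Chac1 (-14.1). Ppp1r15a and Ppp1r15b, which rose, are in the same list, and the median change over its 11 genes was 1.22 points. Mtor and the helicase Ddx3x fell by 5.33 and 5.82 points. Dohh, the enzyme that completes hypusine on eIF5A, fell from 18.8% and 15.2% to 2.15% and 0.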

How the data were processed

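PIP-seq PPSs of MEL cells were analysed from 3 deposited lists, 1 for each day, that pool 24 libraries. Per the paper's methods, the authors trimmed reads with cutadapt 1.2.1, aligned them to mm10 with TopHat 2.0.10 (up to 10 alignments per read), collapsed duplicates and called PPSs at a 5% FDR, protein against noprotein libraries. The deposited score of a PPS is the authors' enrichment value. The deposited name field (other information, not a measurement) gives a nuclease and a replicate for each merged call, from which calling per nuclease and replicate was inferred. They were assigned to samples by title. Library depth is not given in the lists, and it limits which genes can hold PPSs.

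Coverage was computed on the union of exons of each gene in GENCODE M21 (21 chromosomes), and on the rest of the gene as intron, with Python 3.11.15, numpy 2.4.6, pandas 2.3.3 and scipy 1.17.1. PPSs of 20 to 40 nt were left out, after the study's own treatment of ribosome-sized sites. A gene was called where the 2 replicates of a day did not overlap those of the other and the means differed by 5 points in exons or 1 point in introns. No p-value was computed. Genes tested were the 9550 with an exonic PPS at some day. The functions were tested on simulated data. Wilson 95% intervals cover counting error only. Replicates are separate cultures per the study's methods, but no label links a replicate of a day to one of another day.

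Genes named in the text were the Eif2ak kinases, the genes called between days 0 and 4 (up to 8 each way), the largest calls between days 0 and 2, the 5 with the highest exonic and the 5 with the highest intronic coverage, the hosts of covered small RNAs and the first 2 of each functional list. Others are named where a count or pattern needed it, after their values were seen. The rule also asked for genes without PPSs by name. These 11 are not analysed here. A site sequence that the selection also gave is not reported here. The genes, lists and alternatives were chosen with earlier results of these data known. Alternatives were all PPS lengths, PPSs with calls of both replicates, single-call PPSs, a score of at least 10, the transcript with the longest CDS, positions in no exon of another gene on the same strand, a doubled limit, a replicate block, the pooled list of a day and each replicate left out.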

Additional observations from a re-analysis of the deposited data

Results flagged for a closer look

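For 3 genes (5.17% of the 58, against 0.555% of all genes) the coverage of the nucleases moved in opposite directions from day 0 to day 4, with no overlap of replicates and at least 5 points in each, and this difference was not tested. Genes of similar coverage were not taken alone here. Eif5a also moved in opposite directions without overlap, but its ssRNase change of -3.28 points is under the limit. Eef1g fell with ssRNase calls, from 9.58% and 9.62% to 2.96% and 1.12%, and rose with dsRNase calls, from 3.19% and 5.58% to 12.8% and 10.2%, so that the dsRNase change exceeded the ssRNase change by 14.7 points. In Eif4a2 the ssRNase value fell from 63.1% and 62.4% to 42.1% and 42.2%, the dsRNase value rose from 35.1% and 40.02% to 43.0% and 45.6%, and the changes differed by 27.4 points. Eefsec went the other way, with no exonic PPS of ssRNase calls at day 0 and 7.89% and 3.53% at day 4, and dsRNase coverage of 4.14% and 11.1% at day 0 and none at day 4, a difference of -13.3 points.

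The class of 20 to 40 nt that was left out held 753 PPSs on the factor genes, 180 at day 0, 347 at day 2 and 226 at day 4. On the opposite strand of the factor genes 4, 7 and 3 PPSs were found at days 0, 2 and 4, and 3 of these lay outside any gene annotated on that strand.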

How the results depend on the processing

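The selection of PPSs and the size limit changed many counts of genes that rose or fell. With PPSs of a single call only, the counts from day 0 to day 2 were 0 rises and 2 falls (2 and 21 in the report), from day 0 to day 4 0 and 2 (6 and 8), and from day 2 to day 4 1 and 1 (15 and 2). A single-call PPS cannot be shared by the replicates of a day, so their values then come from different sites. The part of this in the low counts was not tested. In that setting the ssRNase counts were 0 and 0 (2 and 5), 0 dsRNase genes rose and 2 fell (7 and 8), and 5 introns fell (14). With the limit doubled to 10 points in exons and 2 in introns, the counts were 1 and 6, then 1 and 1, then 6 and 0, with 0 and 1 for ssRNase, 3 and 0 for dsRNase and 1 and 7 for introns. With PPSs of both replicates, 15 genes fell from day 0 to day 2, and 14 of these were among the 21. In that setting rises from day 0 to day 4 were 3, falls from day 2 to day 4 1, ssRNase rises 1, dsRNase falls 5 and intronic rises 1. A score of at least 10 gave 18 falls from day 0 to day 2, 1 fall from day 2 to day 4 and 4 dsRNase rises. All lengths gave 18 falls from day 0 to day 2, 3 rises from day 0 to day 4 and 1 ssRNase rise. On the transcript with the longest CDS, 13 fell from day 0 to day 4, 28 rose from day 2 to day 4 and 4 rose with ssRNase. The pooled lists, with no replicate check, gave 14 falls from day 0 to day 4, 4 from day 2 to day 4, 6 and 13 for ssRNase, 12 dsRNase rises and 8 intronic rises.
Leaving out 1 replicate at a time gave 3 to 4 rises and 18 to 23 falls from day 0 to day 2, 5 to 9 and 9 to 12 from day 0 to day 4, and 13 to 19 and 3 to 4 from day 2 to day 4. It gave 2 to 5 and 6 to 9 for ssRNase, 7 to 16 and 7 to 8 for dsRNase (16 without replicate 2 of day 4) and 2 to 5 and 13 to 16 for introns.
The sign of the change from day 0 to day 4 turned in Eif2b1 (0.697 with PPSs of both replicates and with a score of at least 10) and, with single-call PPSs, in Eif3m (0.637), Eif4a2 (0.225), Eif4a3 (0.707) and Eif5a (-1.28). The cause was not tested.
Of the 14 genes called between days 0 and 4, all 14 kept the call on the longest CDS, without positions in an exon of another gene, with the replicate block and in the pooled lists. They numbered 9 with all lengths (without Eif2ak2, Eif3b, Eif3f, Eif4a3 and Eif4e) and 8 with PPSs of both replicates or a score of at least 10 (without Eif2ak1, Eif2ak2, Eif2b1, Eif3b, Eif3f and Eif4e). Replicate 1 of day 4 carried the calls of Eif2ak1, Eif3b, Eif3m and Eif4e, replicate 1 of day 0 those of Eif2ak2, Eif3m and Eif4e, replicate 2 of day 0 that of Eif2b1 and replicate 2 of day 4 that of Eif2ak2.
Replicate numbers showed no pairing of the samples in these values, which does not settle whether same-numbered cultures were handled together. Deviations of same-numbered replicates correlated at -0.0762 (days 0 and 2), -0.0576 (days 0 and 4) and 0.0263 (days 2 and 4) over 9550 genes. With the replicate block, 7 genes rose and 8 fell from day 0 to day 4, 21 fell at day 2 and 15 rose after it.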
